A study of Homo sapiens with 2 samples.

Results

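To describe the purinergic system of cholangiocarcinoma cells after MBD2 knockdown, 10 genes of the receptors and enzymes for extracellular nucleotides and adenosine were read out of 56638 genes in the RNA-seq tables. They are the nucleotide receptors P2RY1, P2RY2, P2RY6, P2RY11, P2RX4 and P2RX7, the surface enzymes ENTPD2 and NT5E, and the adenosine receptors ADORA1 and ADORA2B, each with 1 row per symbol. They were chosen by name with the differences between these libraries already known, so their values are given as a description. RNA came from TFK1, an established human cholangiocarcinoma (bile duct cancer) cell line. The library T-shMBD2 was made from TFK1 cells with knockdown of MBD2, and T-shNC from TFK1 cells with a negative control. Neither group carries a treatment in its labels, and the study's methods describe shRNAs in the plko.1 vector, delivered by lentivirus and followed by drug selection. The study used more than 1 shRNA against MBD2, and the labels do not state in words which of them was sequenced. There is 1 library per group, so no difference here has a replicate check, no p-value is given, and a difference between separate cultures cannot be told apart from an effect of the knockdown. MBD2, a protein that binds methylated CpG dinucleotides, had 365 counts in T-shMBD2 and 1013 in T-shNC, so the library labelled as knockdown was the lower.

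Cells release ATP and UTP through channels, vesicles or damage. Outside the cell, P2X receptors open as cation channels when ATP binds, and P2Y receptors signal through G proteins when ATP, ADP, UTP or UDP binds. Surface enzymes then cut the nucleotides in steps: NTPDases such as ENTPD2 remove phosphates from ATP and ADP, NT5E (CD73) turns AMP into adenosine, and adenosine acts on its own receptors. In bile ducts, nucleotides in the bile stimulate fluid and electrolyte secretion through P2 receptors of the biliary epithelium.

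The 10 genes lie on 8 chromosomes. In the GENCODE 29 annotation (GRCh38), joined by Ensembl identifier, P2RY1 (ENSG00000169860) lies on the plus strand of chromosome 3 from 152834693 to 152841439, with its whole coding sequence of 1119 bases in 1 exon. P2RY2 (73218298 to 73236352) and P2RY6 (73264505 to 73298617) lie close to each other on the plus strand of chromosome 11, each also with 1 coding exon. P2RY11 lies on the plus strand of chromosome 19 (10111538 to 10115372), and P2RX7 (121132819 to 121188032) and P2RX4 (121209857 to 121234106) are neighbors on the plus strand of chromosome 12, with 13 coding exons each. ENTPD2 is on the minus strand of chromosome 9 (137048098 to 137054045), and NT5E (chromosome 6, 85449584 to 85495791), ADORA1 (chromosome 1, 203090654 to 203167405) and ADORA2B (chromosome 17, 15944917 to 15975746) are on plus strands. The submitters' processing notes name GRCh38.p13, but for 0 of the 10 genes is the start in the deposited tables that of GENCODE 29. For P2RY2, P2RY6, P2RY11, P2RX4, ENTPD2, ADORA1 and ADORA2B the span in bases is the same in both, so only the position is shifted. Which genome build the table positions follow was not tested, and they were used only to find overlapping and neighboring rows.

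Because MBD2 binds methylated CpG, the CpG dinucleotides around the gene starts were counted. RefSeq windows (GRCh38.p14, from 250 bases before to 50 bases after the RefSeq start) were matched for 8 of the 10 genes, and P2RY2 and P2RY6 were not matched. The RefSeq start is not the GENCODE 29 start given above for any of the 8. It lies 16 bases before that start for ENTPD2, and after it by 57 bases for P2RX7, 155 for P2RY11, 213 for ADORA2B, 272 for P2RX4, 438 for P2RY1, 499 for NT5E and 37072 for ADORA1. The windows of P2RY1, P2RX4, NT5E and ADORA1 therefore lie wholly inside the gene as GENCODE 29 draws it, that of P2RY1 in its 5′ UTR, and are not upstream sequence in that annotation. The stretches of a window that precede the GENCODE 29 start are shown for ENTPD2, the matched gene with the highest log2FC, and for P2RY11 and P2RX7, whose windows hold the fewest CpG; P2RY1 has no such stretch. CpG (the motif CG, which reads the same on both strands) is in capitals.
ENTPD2, chr9:137054046-137054311, minus strand: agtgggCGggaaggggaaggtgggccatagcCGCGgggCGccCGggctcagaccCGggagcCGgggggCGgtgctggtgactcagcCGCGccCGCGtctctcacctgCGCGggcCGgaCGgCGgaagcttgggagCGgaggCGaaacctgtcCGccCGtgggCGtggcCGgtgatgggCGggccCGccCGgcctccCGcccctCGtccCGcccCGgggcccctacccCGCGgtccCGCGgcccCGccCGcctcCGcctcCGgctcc
P2RY11, chr19:10111443-10111537, plus strand: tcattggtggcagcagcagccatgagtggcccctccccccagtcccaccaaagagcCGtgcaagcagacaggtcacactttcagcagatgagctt
P2RX7, chr12:121132626-121132818, plus strand: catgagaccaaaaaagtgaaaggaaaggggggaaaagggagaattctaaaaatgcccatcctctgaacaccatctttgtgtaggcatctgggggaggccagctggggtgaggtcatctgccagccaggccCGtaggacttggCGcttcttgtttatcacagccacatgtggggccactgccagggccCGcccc

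These stretches hold 38 CpG in 266 bases for ENTPD2, 1 in 95 for P2RY11 and 3 in 193 for P2RX7. The whole P2RY1 window holds 32 CpG, more than 81.1% of 35116 windows of this length, and the ENTPD2 window holds 43, more than 95%. The P2RY11 window holds 7 and the P2RX7 window 4, against a median of 14 over all windows, of which 96.0% hold at least 1 CG. The other matched genes had 41 CpG (ADORA2B), 37 (NT5E), 33 (P2RX4) and 19 (ADORA1). P2RY1 and ENTPD2, which are past the limits used below in opposite directions, and P2RX4, NT5E and ADORA2B, which are inside them, each have at least 32 CpG in the window. Methylation was not measured here, and a CpG in a window does not show that MBD2 binds there.

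By TPM (transcript abundance scaled to gene length and library size), ADORA2B, the Gs-coupled adenosine receptor of low affinity, stood highest in both libraries, with 41.8 in T-shNC and 34.6 in T-shMBD2. NT5E was second with 23.3 and 20.5 TPM. P2RX4, an ATP-gated channel, came next with 9.78 and 8.45 TPM. The order below them was not the same in the libraries: P2RY1 ranked 5 in T-shNC and 9 in T-shMBD2, whereas P2RY2 ranked 6 and 4. By exact Poisson intervals of the counts, which cover counting error only, ADORA2B, NT5E and P2RX4 stood apart from each other in each library. Of genes next to each other in the order, P2RX4 and P2RY6, P2RY1 and P2RY2, P2RY2 and P2RY11, and P2RY11 and ADORA1 had overlapping intervals in T-shNC. In T-shMBD2 this held, again among genes next to each other, for P2RX4 and P2RY2, P2RY2 and P2RY6, ADORA1 and P2RY11, P2RY11 and ENTPD2, and ENTPD2 and P2RY1.

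**Figure D1:**
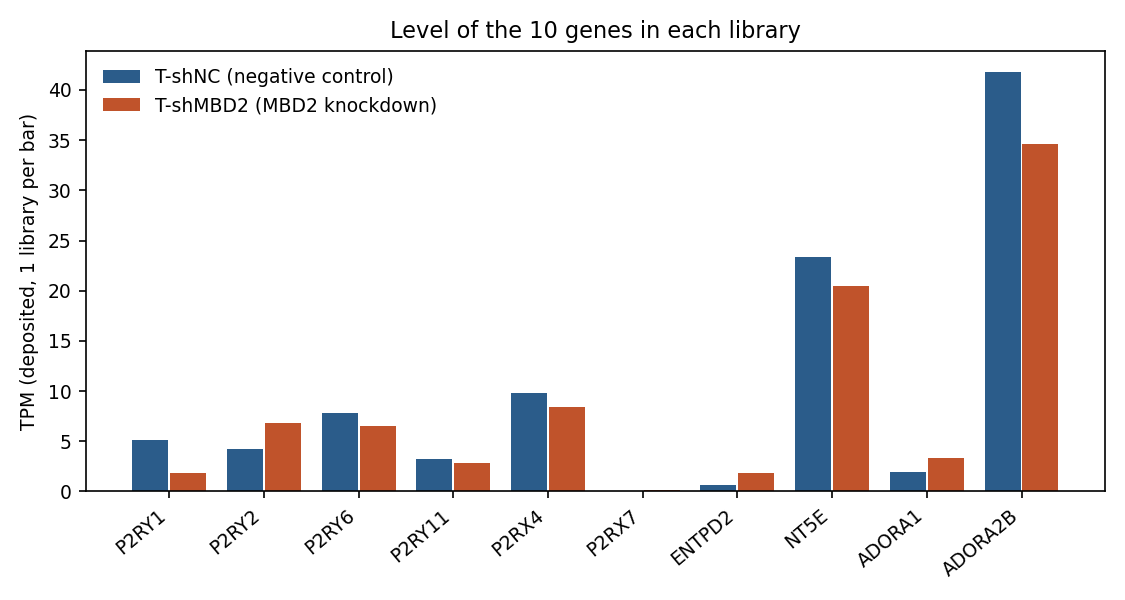
Bars give the deposited TPM of the 10 genes, with 1 library per bar (blue T-shNC, orange T-shMBD2) and no error bar, since each group has 1 library. ADORA2B and NT5E are the highest in both libraries, P2RY1 is at 5.08 TPM in T-shNC and 1.80 in T-shMBD2, and P2RX7 is at or near 0.

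To compare the libraries, log2FC was computed as T-shMBD2 over T-shNC from TMM-scaled counts with a prior of 0.5 counts, wherever the libraries together held 10 counts or more, which left 17545 genes. Intervals are 95% exact Clopper-Pearson intervals of how a gene's reads split between the libraries and cover counting error only. Of the 10 genes, 9 passed this filter. P2RY1 had a log2FC below -1, as did 5.07% of all genes compared, and ENTPD2 a log2FC above 1, as did 5.48%. The other 7 lay between these limits. The median over the 9 genes was -0.18, and over all genes compared -0.0082. The interval lay below 0 for P2RY1 and ADORA2B, against 18.4% of all genes compared, and above 0 for P2RY2, ENTPD2 and ADORA1, against 19.7%. Since the genes were picked by name with these values known, neither share is read further.

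P2RY1, the Gq-coupled receptor for ADP, had 88 counts (5.08 TPM) in T-shNC and 32 counts (1.80 TPM) in T-shMBD2. Its log2FC was -1.45 (interval -2.10 to -0.87), so that its scaled count in T-shMBD2 was 36.1% of that in T-shNC, and the upper end of the interval lies inside the limit of -1. P2RY2, a Gq-coupled receptor for ATP and UTP, went the other way, with 63 counts (4.25 TPM) in T-shNC and 104 counts (6.84 TPM) in T-shMBD2. Its log2FC was 0.71 (interval 0.25 to 1.19). P2RY6, the receptor for UDP, had 104 counts (7.78 TPM) in T-shNC and 89 (6.49 TPM) in T-shMBD2, a log2FC of -0.23 whose interval, from -0.66 to 0.19, holds 0. P2RY11, a receptor for ATP that couples to Gq and Gs, had 35 (3.23 TPM) and 31 counts (2.79 TPM), a log2FC of -0.18 (interval -0.93 to 0.56).

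**Figure D2:**
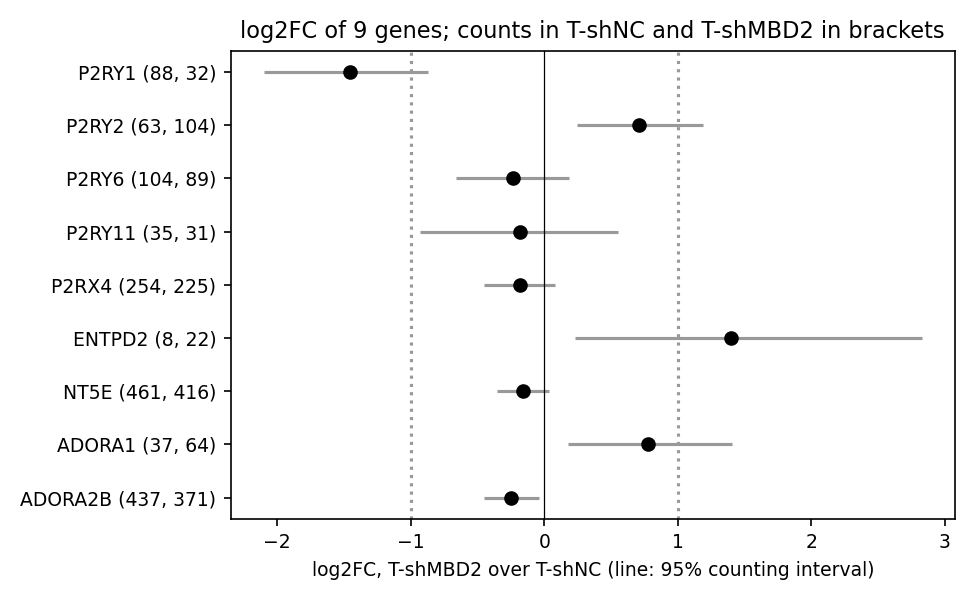
Points give the log2FC of the 9 genes that passed the filter and lines their 95% counting intervals. Dotted lines mark -1 and 1, and brackets hold the counts in T-shNC and T-shMBD2. P2RY1 is the only one of the 9 genes below -1 and ENTPD2 the only one above 1.

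P2RY1 was also set beside its paralogs by ratios of counts within a library, in which the library scaling cancels. P2RY1 stood at 1.20 times the TPM of P2RY2 in T-shNC and at 0.264 times in T-shMBD2. The ratio of P2RY1 to P2RY2 changed by a factor of 0.222 (95% exact conditional interval 0.128 to 0.378). Against P2RY6 the factor was 0.426 (interval 0.250 to 0.714), and against P2RY11 it was 0.413 (interval 0.209 to 0.811). P2RY1 was picked with its lower count known, so these 3 factors describe its size beside the paralogs and test nothing. P2RY2 was higher relative to P2RY6 in T-shMBD2 by a factor of 1.93 (interval 1.24 to 3.01) and to P2RY11 by 1.86 (interval 1.01 to 3.45), whereas the ratio of P2RY6 to P2RY11 gave 0.966 (interval 0.531 to 1.76). These 6 ratios share their genes and their libraries, and the spread between cultures is not in their intervals. All genes in them were picked with their values known, so the ratios of P2RY2 and P2RY6 also describe and test nothing. The same holds for the ratios of ENTPD2 to NT5E and of ADORA1 to ADORA2B given below. Of the TPM summed over the 4 P2Y genes, P2RY1 held 25% in T-shNC and 10.1% in T-shMBD2, and P2RY2 held 20.9% and 38.2%. The sum itself was 20.3 TPM in T-shNC and 17.9 in T-shMBD2.

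**Figure D3:**
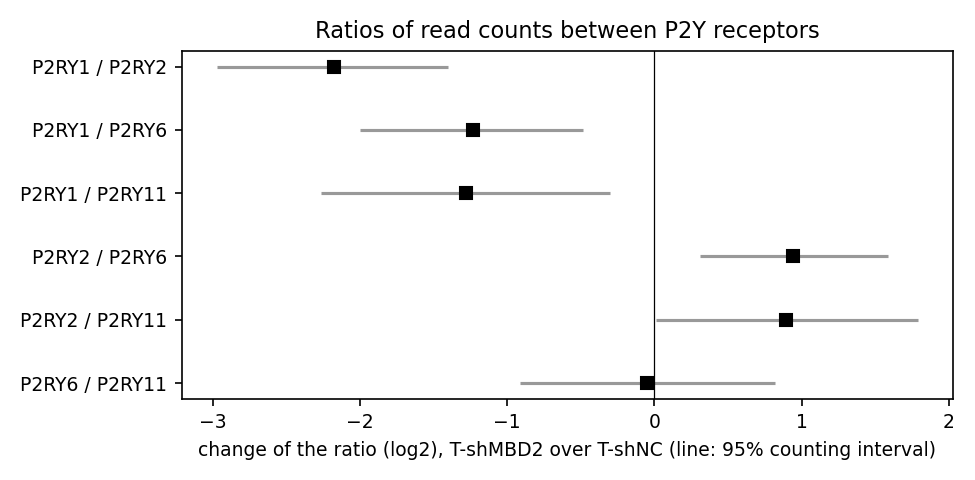
Squares give the change, on the log2 scale, of the ratio of counts between P2Y receptors from T-shNC to T-shMBD2, and lines the 95% exact conditional intervals (counting error only). All 3 ratios with P2RY1 on top lie below 0, and P2RY6 over P2RY11 lies at -0.049.

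The counts of P2RY11 may be incomplete, because its row overlaps other genes. On the same strand, PPAN overlaps it over 3201 bases with 10 counts in T-shNC and 12 in T-shMBD2, and the readthrough gene PPAN-P2RY11 had 0 counts in each library. EIF3G, on the opposite strand, overlaps P2RY11 over 356 bases and had 966 and 1189 counts. How reads shared by overlapping genes were assigned, and whether strand was used, is not given in the sources used here. P2RY1, P2RY2, P2RY6, P2RX4, NT5E and ADORA2B overlap no other row of the tables. The rows that overlap ENTPD2, ADORA1 and P2RX7 had at most 1 count in a library.

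Of the P2X channels, P2RX4 had 254 counts in T-shNC and 225 in T-shMBD2, a log2FC of -0.18 (interval -0.45 to 0.081). P2RX7, the ATP-gated channel known for inflammasome activation in macrophages, had 0 counts in T-shNC and 3 in T-shMBD2. A count of 0 allows up to 3 counts, so that no difference in P2RX7 was detectable at this depth and no fold is given. P2RX4 and P2RX7 are neighbors, and only P2RX4 was measured above the floor.

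Of the surface enzymes, ENTPD2, which preferentially cuts ATP to ADP, had 8 counts (0.685 TPM) in T-shNC and 22 (1.84 TPM) in T-shMBD2. Its log2FC of 1.40 had a wide interval, from 0.23 to 2.83, and was 0.75, inside the limit, with log2 of TPM plus 1. At such depth past-the-limit values are common: 13.4% of the 5573 genes with 10 to 99 counts in all had a log2FC above 1. NT5E had 461 counts (23.3 TPM) and 416 (20.5 TPM), a log2FC of -0.16 (interval -0.35 to 0.037). Relative to NT5E, ENTPD2 was higher in T-shMBD2 by a factor of 3.04 (interval 1.29 to 8.0), but it made up 2.86% of the TPM of the 2 genes in T-shNC and 8.22% in T-shMBD2.

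Of the adenosine receptors, ADORA1, which couples to Gi and lowers cAMP, had 37 counts (1.95 TPM) in T-shNC and 64 (3.29 TPM) in T-shMBD2. Its log2FC was 0.77 (interval 0.18 to 1.41). ADORA2B, which couples to Gs and raises cAMP, had 437 counts (41.8 TPM) and 371 (34.6 TPM), a log2FC of -0.24 (interval -0.45 to -0.042). Relative to ADORA2B, ADORA1 was higher in T-shMBD2 by a factor of 2.04 (interval 1.30 to 3.22). ADORA2B nevertheless held 95.5% of the TPM of the pair in T-shNC and 91.3% in T-shMBD2.

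A list of 85 further genes of the pathway was read in the same way, and 58 of them had at least 10 counts in all. The log2FC exceeded 1 in 6 of them (10.3%, against 5.48% of all genes compared) and was under -1 in 4 (6.90%, against 5.07%), with a median of 0.032. The interval lay above 0 for 13 of the 58 and below 0 for 11, against 19.7% and 18.4% of all genes compared. Among other nucleotide receptors, none of the 6 further P2Y genes passed the filter, and each had at most 1 count over both libraries, with P2RY4 at 0 counts in T-shMBD2 and 1 in T-shNC. P2RX3, an ATP-gated channel known from sensory neurons, had 18 counts in T-shNC and 7 in T-shMBD2 (log2FC -1.31, interval -2.87 to -0.044). P2RX2 had 8 and 2 counts and an interval that holds 0. The other two P2X genes compared lay inside the limits with intervals that hold 0, P2RX5 with 12 and 14 counts (log2FC 0.21) and P2RX6 with 25 and 17 (log2FC -0.55). The readthrough P2RX5-TAX1BP3 had 15 counts in each library, so that reads of P2RX5 could be split between the rows. ADORA2A, the Gs-coupled adenosine receptor of high affinity, had 20 counts (1.40 TPM) in T-shNC and 5 (0.340 TPM) in T-shMBD2, a log2FC of -1.91 (interval -3.78 to -0.55). The readthrough SPECC1L-ADORA2A had 0 counts in each library. ADORA3 had 0 counts in each library.

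Among the other surface enzymes, ENTPD1 (CD39) had 269 counts in T-shNC and 267 in T-shMBD2, and ENPP1, the highest of the group by TPM, had 297 and 293. ALPPL2, a placental-type alkaline phosphatase, had 0 counts in T-shNC and 23 in T-shMBD2, which is 7.62-fold (log2 2.93) when set against a floor of 3 counts. That figure leaves out the counting error of the 23 reads, and with it the interval of the log2FC starts at 2.51; with log2 of TPM plus 1 the log2FC was 1.39. It is a close copy of ALPP, which had 1 count in each library, so that reads could be split between them. ALPL had 2 and 10 counts (log2FC 2.06, interval 0.083 to 5.54). All 4 NTPDases of internal membranes (ENTPD4, ENTPD5, ENTPD6 and ENTPD7) lay inside the limits, with ENTPD6 the highest at 86.7 TPM in each library. The interval lay below 0 for 1 of the 4, ENTPD5, at a log2FC of -0.36 (interval -0.56 to -0.18). It lay above 0 for 1 of the 4, ENTPD7, at 0.49 (interval 0.25 to 0.74). Over all genes compared these shares were 18.4% and 19.7%.

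The next group holds enzymes that make, remove or recycle adenosine and AMP, and also the peptidase DPP4. Of its 12 genes compared, 11 lay inside the limits, with AHCY the highest at 216 TPM in T-shNC and 232 in T-shMBD2. The interval lay above 0 for 3 of the 12 and below 0 for 2, against 19.7% and 18.4% of all genes compared. ADA, which deaminates adenosine, had 289 and 282 counts, and ADK, which phosphorylates it, had 549 and 559. AMPD3, an AMP deaminase, had 35 counts in T-shNC and 74 in T-shMBD2 (log2FC 1.06, interval 0.47 to 1.69). With log2 of TPM plus 1 in place of counts, P2RX3, ADORA2A, ALPL and AMPD3 lay inside the limits. All 4 nucleoside transporters compared lay inside the limits, with SLC29A1 (ENT1) the highest and at a log2FC of 0.32 (interval 0.20 to 0.45). All 9 genes of ATP release with enough reads also lay inside them, with GJA1 the highest at 3224 and 3197 counts and the pannexin channel PANX1 at 313 and 335. The interval left out 0 for 2 of the 9, the volume-regulated anion channel subunits LRRC8A, at a log2FC of 0.37 (interval 0.21 to 0.53), and LRRC8D, at -0.37 (interval -0.50 to -0.24). Of all genes compared, 19.7% had an interval above 0 and 18.4% an interval below 0.

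Of 12 genes compared among G proteins, phospholipases C and IP3 receptors, 11 lay inside the limits and PLCB1 did not. The interval lay above 0 for 2 of the 12, against 19.7% of all genes compared. It lay below 0 for 4, PLCB1 among them, against 18.4%. GNAQ, the G protein of P2Y1, had 1568 counts in T-shNC and 1486 in T-shMBD2, and GNAS, that of ADORA2B and the highest of this group, had 6711 and 6737. PLCB1, a phospholipase C downstream of Gq, had 300 counts (7.38 TPM) in T-shNC and 103 (2.47 TPM) in T-shMBD2. Its log2FC was -1.55 (interval -1.89 to -1.22), so that the whole interval lies below -1. PLCB4 had 1135 and 757 counts (log2FC -0.59), and PLCB3 had 764 and 827 (log2FC 0.11). Of the inflammasome genes that act downstream of P2X7, NLRP3 had 0 counts in each library. The log2FC exceeded 1 in 3 of the 6 compared (50%, against 5.48% of all genes compared), namely IL1B, PYCARD and CASP1. All 3 had 10 to 99 counts in all, a range in which 13.4% of genes lay above 1. The interval lay above 0 for 3 of the 6 and below 0 for 1, against 19.7% and 18.4% of all genes compared. IL1B had 1 count in T-shNC and 24 in T-shMBD2 (log2FC 4.02, interval 1.96 to 9.94), and PYCARD had 1 and 9 (log2FC 2.66, interval 0.31 to 8.61). With log2 of TPM plus 1 the log2FC was 1.69 for IL1B and 1.04 for PYCARD. CASP1 had 7 and 15 (log2FC 1.04) with an interval that holds 0. GSDMD had 423 and 309 (log2FC -0.46, interval -0.68 to -0.25), and IL18, the highest of the group, had 861 and 951.

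**Figure D4:**
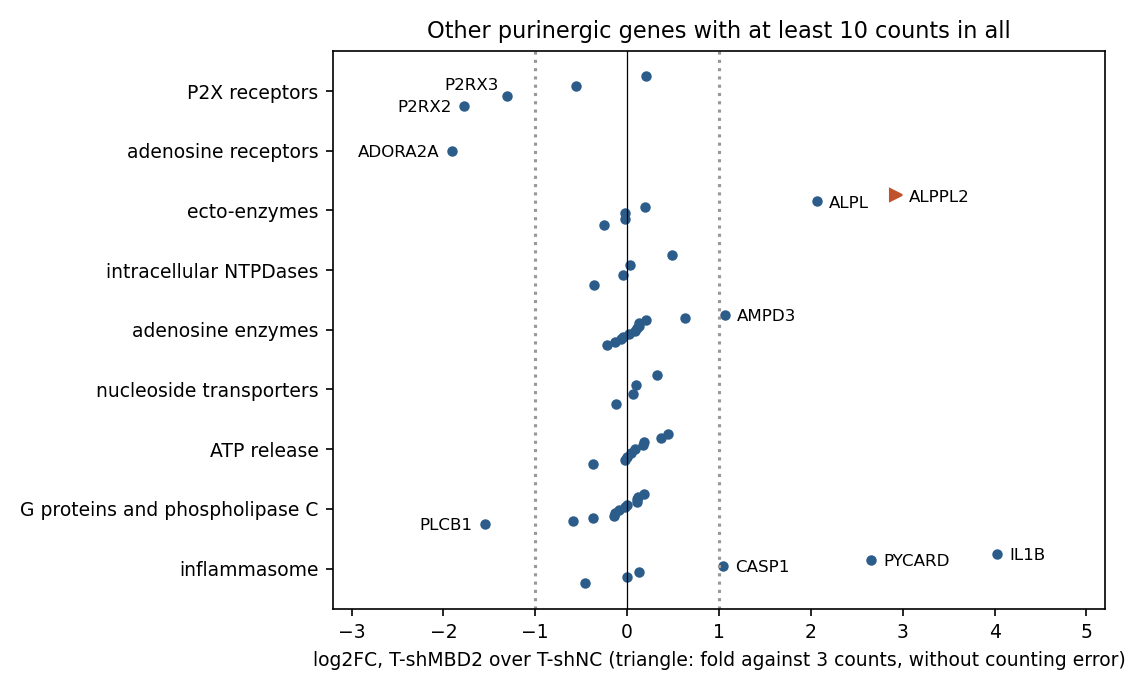
Points give the log2FC of the 58 further pathway genes that passed the filter, by group; the triangle is ALPPL2, which had 0 counts in T-shNC and is drawn at its fold against 3 counts, without counting error. Genes past -1 or 1 are named, and PLCB1, with 300 counts in T-shNC and 103 in T-shMBD2, has the most reads of them.

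The tissue of origin was checked on markers. All 7 biliary epithelium markers had at least 70 counts in each library, with KRT7 at 1327 TPM in T-shNC and 1160 in T-shMBD2 and KRT19 at 9.04 and 15.0. All 7 lay inside the limits of log2FC. The interval lay below 0 for 5 of them and above 0 for 2, against 18.4% and 19.7% of all genes compared. Their summed level was 6014 TPM in T-shNC and 4814 in T-shMBD2, of which KRT8 made up 3890 and 3006. Of 7 leukocyte markers, whose summed level was 12.5 TPM in T-shNC and 14.4 in T-shMBD2, CD14 alone had at least 10 counts in all (126 and 152), and CD3E and CD52 had 0 counts in each library. Of 6 fibroblast markers, summed at 3.98 and 8.42 TPM, COL1A1 had 124 and 308 counts and LUM 6 and 5, and the others had at most 7 over both libraries. COL1A1 lay above the limit at a log2FC of 1.30 (interval 0.998 to 1.62), as did 5.48% of all genes compared. The 4 endothelium markers had at most 1 count. Total counts were 14728814 in T-shMBD2 and 14467406 in T-shNC.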

How the data were processed

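Total RNA of TFK1 cells was sequenced, with 1 library of MBD2 knockdown cells (T-shMBD2) and 1 of negative control cells (T-shNC). The authors deposited raw read counts per gene and a second table of TPM. The submitters' processing notes name fastp, HISAT2 2.1.0, featureCounts, DESeq 1.18.1 and GRCh38.p13; annotation and strandedness are not given in the sources used here. Of 63723 lines, 46 held no gene and were dropped. The tables repeat the values of a symbol on each of its Ensembl identifiers, and repeats were dropped to leave 56638 genes, after which TPM summed to 1000000 per library.

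Counts were scaled with TMM factors of edgeR 4.0.16 (R 4.3.3), and intervals were computed with scipy 1.17.1. Genes with at least 10 counts in all were set against the limits of log2FC 1 and -1, with no p-value. The script was tested on simulated Poisson counts for 17545 genes, of which 200 were changed 4-fold; it recovered 98.5% of these. Genes named are the 10 members, MBD2, genes overlapping the members, and, of the further pathway list, the highest by TPM in each group and those past a limit whose interval leaves out 0; ENTPD1, ENTPD4, ENTPD5, ENTPD7, ADA, ADK, GNAQ, PANX1, LRRC8A, LRRC8D, PLCB3, PLCB4, P2RX2, P2RX5, P2RX6, CASP1, GSDMD, ALPP, ADORA3, NLRP3, the readthroughs of ADORA2A and P2RX5 and the cell type markers were added for their roles, and 6 of the neighboring rows for their position or value, all after their values were seen. The members and lists were chosen with earlier results of these data known. As alternatives, counts were scaled by totals, by upper quartiles or with DESeq2 1.42.0, TPM with a pseudocount took their place, and prior counts and filters were varied.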

Additional observations from a re-analysis of the deposited data

How the results depend on the processing

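The log2FC of the 9 genes kept its sign and stayed within its counting interval in all 73 values computed under other scalings, prior counts, TPM and 2 alternatives chosen after seeing the data (all deposited rows, and the joined rows of P2RY1 described below). P2RY1 ranged from -1.47 to -1.12 and ENTPD2 from 0.75 to 1.44. The number of the 10 genes above 1, which was 1, was 0 with log2 of TPM plus 1 and with at least 100 counts, and 2 with at least 1 count, where P2RX7 enters; the number below -1 did not move. Of the further pathway genes, 10 were past a limit; there were 4 with log2 of TPM plus 1, where P2RX3 (-0.73), ADORA2A (-0.84), ALPL (0.56) and AMPD3 (0.72, and 0.998 with TPM plus 0.1) were among those inside the limits, 25 with at least 1 count and 2 with at least 100 counts. Over all genes, 961 lay above 1 and 890 below -1. These became 374 and 340 with log2 of TPM plus 1, 4523 and 4303 with at least 1 count, and 213 and 127 with at least 100 counts. The filters set how many genes enter, and adding 1 TPM shrinks the ratio of genes with low TPM. With TPM plus 1, ALPPL2 moved to 1.39, IL1B to 1.69 and PYCARD to 1.04. No paired analysis was possible because each group has 1 library. Depth limits genes with few reads, such as ENTPD2 and P2RX7, and the spread between cultures was not measured.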

Other observations

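The row that follows P2RY1 on the same strand in the deposited tables is RP11-38P22.2, which starts 1.3 kb after its end. It had 27 counts (2.36 TPM) in T-shNC and 14 (1.19 TPM) in T-shMBD2, a log2FC of -0.93 (interval -2.0 to 0.026). The P2RY1 row of the tables spans 3106 bases, whereas P2RY1 in GENCODE 29 spans 6747 bases, and GENCODE 29 holds 0 lines with the identifier of RP11-38P22.2. With the reads of both rows added, a comparison chosen after seeing the data, there were 115 counts in T-shNC and 46 in T-shMBD2, a log2FC of -1.32 (interval -1.86 to -0.83). Whether both rows measure 1 transcript was not tested.

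The nearest row with at least 10 counts on each side of the 10 genes was also read, which gave 17 genes outside the 10. Of these, 15 lay inside the limits and 2 (11.8%) above 1, against 5.48% of all genes compared. Both had 10 to 99 counts in all, a range in which 13.4% of genes lay above 1. Many of the 17 had more counts, so that the 11.8% and the 13.4% do not compare like with like. OASL, an interferon-induced gene and the nearest such row before P2RX7, had 10 counts in T-shNC and 43 in T-shMBD2, a log2FC of 2.04 (interval 1.08 to 3.25). RP11-800A3.7, which follows P2RY6, had 4 and 9 counts and an interval that holds 0. On the other side of P2RY1, MBNL1 lay at -0.31 (interval -0.39 to -0.24), and between P2RY2 and P2RY6, RP11-800A3.4 lay at 0.35 (interval -0.19 to 0.90). CAMKK2, which follows P2RX4, lay at -0.079 (interval -0.21 to 0.055).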
